A study of Mus musculus with 8 samples.

Results

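Collagens are the trimeric proteins that carry the tensile strength of skin, and each chain is the product of its own gene. All probe sets of the array whose single gene symbol had the form Col, number, a, number were taken, whatever their values. This gave 58 probe sets for 36 collagen chain genes, of 22690 probe sets and 12394 genes with a single-symbol probe set on the array. Of the 36 genes, 17 had 1 probe set and 19 had more.

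Whole skin of newborn mice of the inbred strain FVB gave the RNA for 8 oligonucleotide arrays, and each array received the pooled RNA of 3 animals. The 4 genotypes, with 2 arrays for each, were control, pRb_null (pRb-/-;p53+/+), p53_null (pRb+/+;p53-/-) and double_null (pRb-/-;p53-/-), where pRb is the product of Rb1 and p53 that of Trp53, both inactivated somatically in stratified epithelia. The sources used here name neither the driver of the deletion nor the alleles of the control animals. Whether replicate arrays came from different pools is not stated either, and the p-values therefore cover array-to-array spread that may be technical.

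Fibrillar collagens (types I, II, III, V and XI) form the banded fibrils of dermis and cartilage, and fibril-associated collagens (such as IX, XII and XIV) sit on their surface. Type IV forms the sheet of basement membranes, type VI the beaded filaments around them, and types VII and XVII fasten the epidermis to the dermis as anchoring fibrils and as the transmembrane collagen of hemidesmosomes. In skin, fibroblasts make most fibrillar collagen, while keratinocytes make types VII and XVII and part of the basement membrane. In bulk skin, fewer cells of a type and less RNA per cell cannot be told apart.

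Values were deposited as standardized scores, so each probe set has a mean of 0 and an SD of 1 across the arrays. A score gives the order and spacing of the arrays for that probe set only. It holds no expression level, so no fold change, no filter on dim probe sets and no comparison of levels between collagens could be made. The array number limits the precision. Each difference below is the difference of group mean scores, with the standard error (SE) of limma's linear model over the 8 arrays, and a probe set was called changed at a Benjamini-Hochberg adjusted p under 0.05 over all 22626 non-control probe sets. Between arrays of 1 genotype, r across probe sets was 0.117 to 0.339, and the highest r between genotypes was 0.093. Of the manufacturer's 64 control probe sets, 16 to 18 were higher and 0 to 2 lower at an unadjusted p under 0.05 in each mutant genotype than in control, with median differences of 0.71 to 0.87; their part in the differences from control below was not tested.

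Of the 58 collagen probe sets, 1 was called in any comparison. This was Col11a1 (1418599_at), which fell in double_null against control (background for falls 0.526%) and against pRb_null (0.256%). Against control, 0 collagen probe sets were called in pRb_null and 0 in p53_null by limma's ordinary test, and limma's moderated test called 0 in each comparison, as it did over all 22626 probe sets. The background of the ordinary test in double_null against control was 192 of the 22626 probe sets (0.849%), in double_null against pRb_null 92 (0.407%), in p53_null against control 27 (0.119%), in double_null against p53_null 8 (0.0354%) and in pRb_null against control 0 (0%). The single call is 1.72% of the 58.

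**Figure D1:**
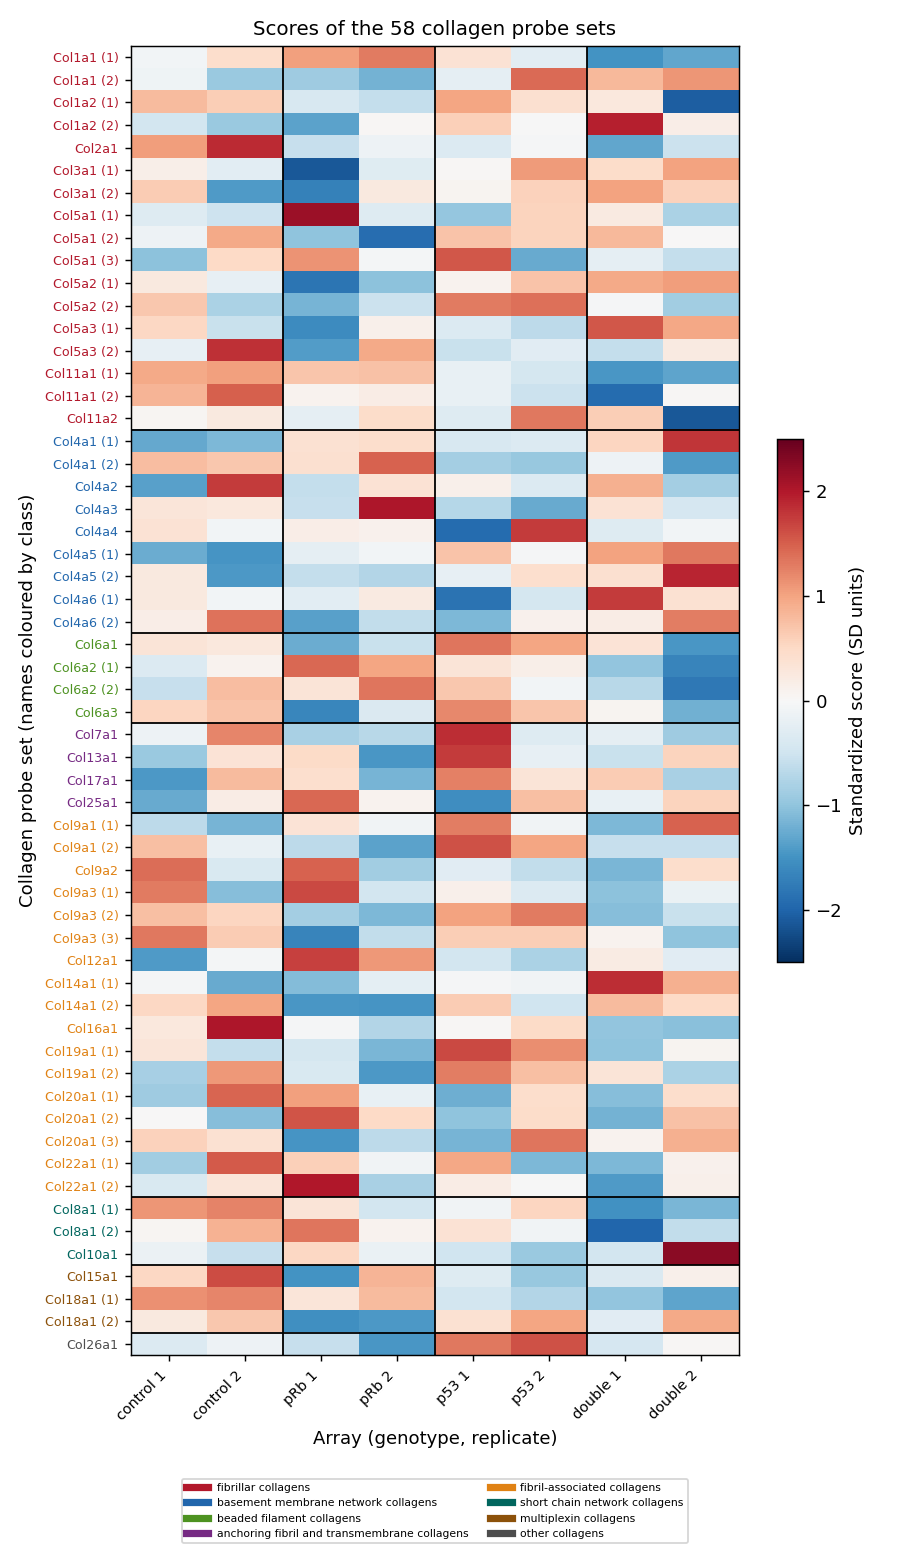
Standardized scores (colour, SD units) of the 58 collagen probe sets (rows, grouped by class with names coloured by class; numbers in brackets tell apart probe sets of 1 gene in order of identifier) on the 8 arrays (columns, 2 per genotype). Of the 17 fibrillar probe sets, 13 had a lower mean in pRb_null than in control and 4 a higher one.

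At an unadjusted p under 0.05, 14 collagen probe sets of 13 genes differed between pRb_null and control (background 10.6%), 5 higher (background 6.38%) and 9 lower (background 4.22%). The members that were lower belonged to Col9a3 (2 probe sets), Col14a1, Col2a1, Col18a1, Col5a2, Col8a1, Col5a1 and Col9a1, and those that were higher to Col6a2, Col4a5, Col12a1, Col4a1 and Col1a1. The median difference over the 58 was -0.29, beside 0.07 over all probe sets, and 39 were lower. The groups did not overlap for 29 of the 58, where the background was 41.0%. The 14 became 7 and 8 without control replicate 1 and control replicate 2, and 6 without pRb_null replicate 1.

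Between p53_null and control, 5 collagen probe sets differed at that bound (background 14.6%), 2 higher (Col4a5 and Col26a1; background 7.32%) and 3 lower (Col11a1, Col18a1 and Col2a1; background 7.24%). The median difference was 0.17, beside -0.16 over all probe sets. The groups did not overlap for 23 of the 58 (background 52.7%). The 5 became 8 without either double_null array, which changes only the shared estimate of the spread.

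In double_null against control, 12 collagen probe sets of 11 genes passed the unadjusted bound (background 18.6%), 3 higher (background 8.72%) and 9 lower (background 9.93%). Higher were Col4a5, Col4a1 and Col14a1. Lower were both probe sets of Col11a1 and 1 each of Col18a1, Col8a1, Col9a3, Col2a1, Col1a1, Col6a2 and Col16a1. The median difference over the 58 was -0.34, beside -0.01 over all probe sets, and the groups did not overlap for 29 (background 51.2%).

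When p53 was lost on top of pRb (double_null against pRb_null), 13 collagen probe sets passed the unadjusted bound (background 18.6%), 7 higher (background 7.73%) and 6 lower (background 10.9%), with 31 of 58 not overlapping (background 50.1%). When pRb was lost on top of p53 (double_null against p53_null), 10 passed (background 11.9%), 2 higher (background 5.98%) and 8 lower (background 5.92%), with 29 not overlapping (background 49.5%). The test of whether pRb loss acted differently with and without p53 (the interaction) called 0 collagen probe sets by limma's ordinary test, with a background of 0%, and 0 by its moderated test. At an unadjusted p under 0.05 it found 5 (background 10.4%). The test of any difference among the 4 genotypes called 0 by both statistics (background 0.159%) and found 14 at an unadjusted p under 0.05 (background 18.6%). These comparisons share arrays with those against control.

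**Figure D2:**
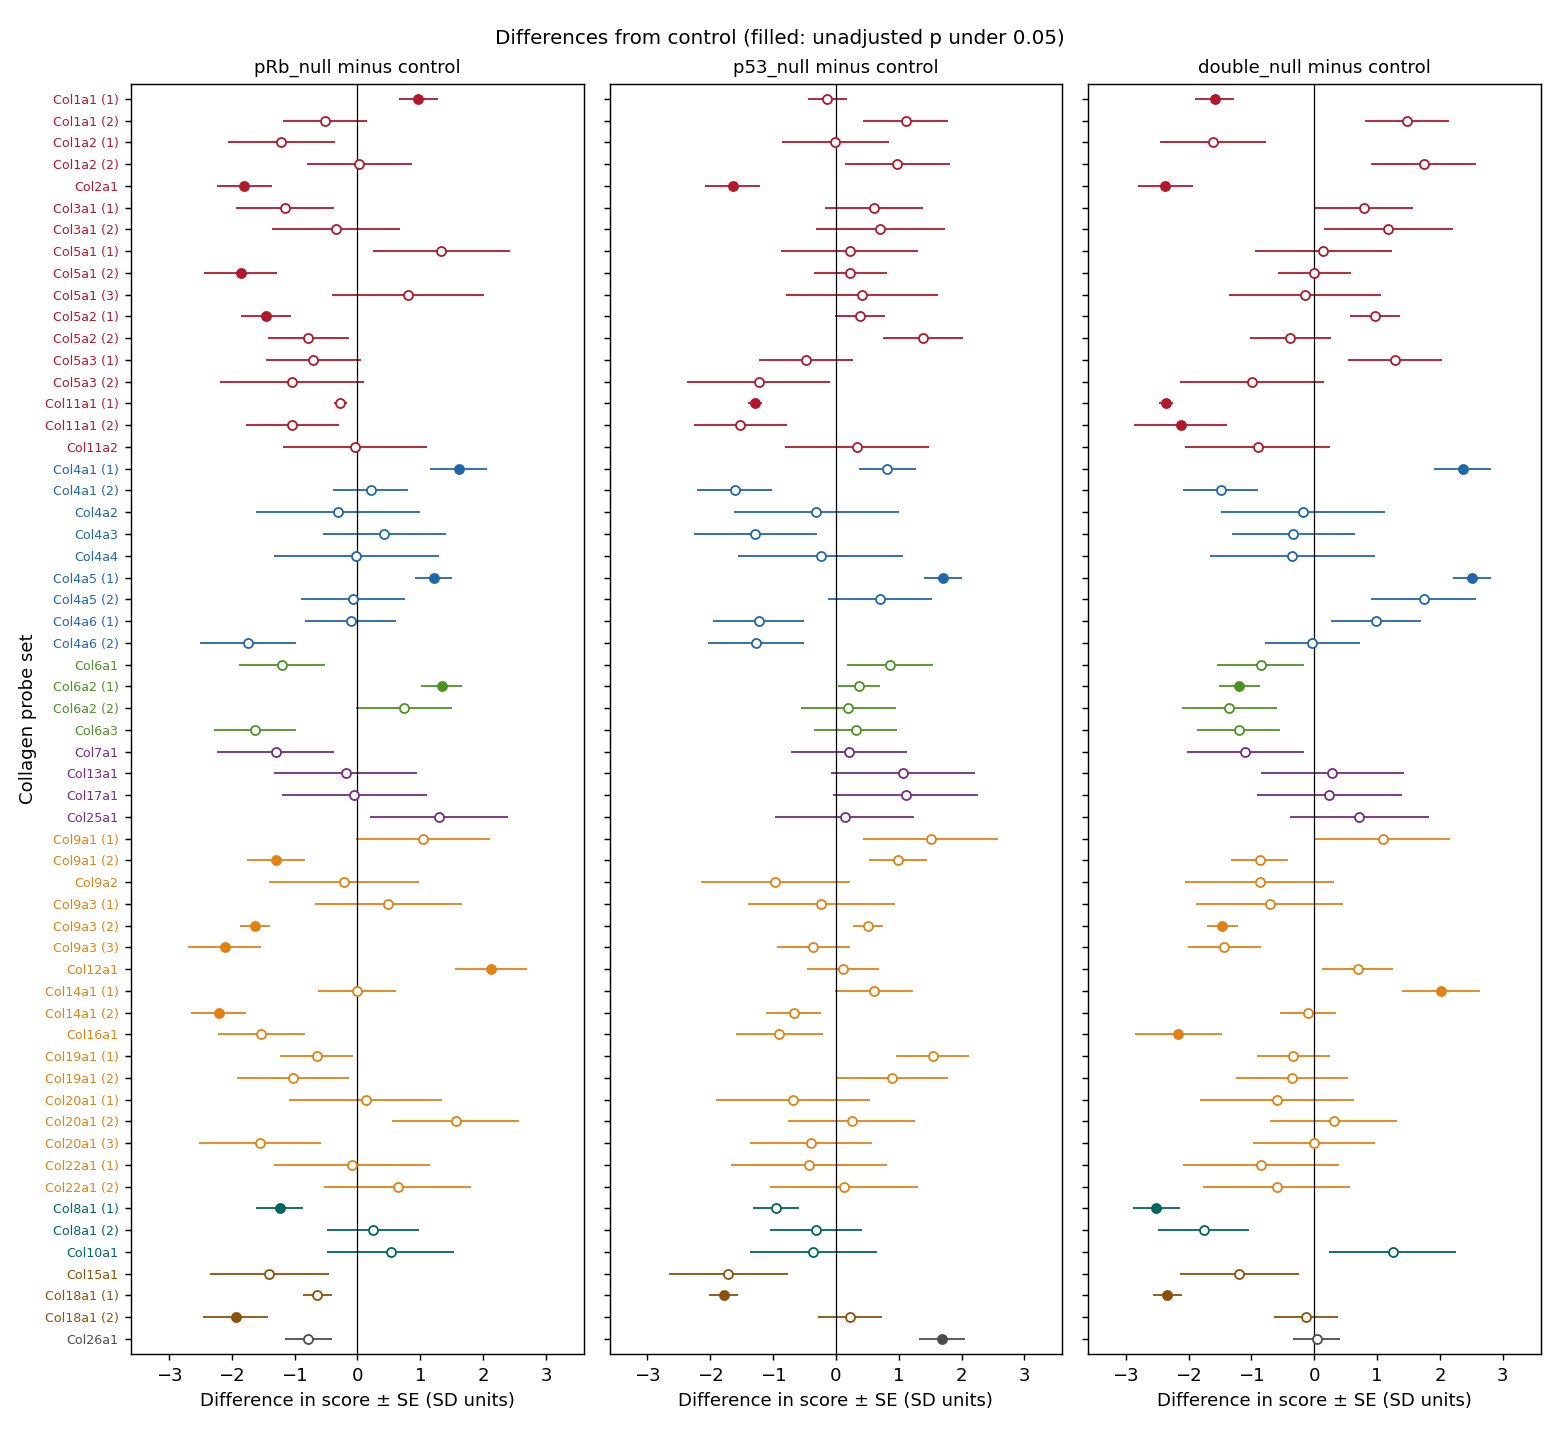
Difference of mean score from control (x axis, SD units, bars ± SE of the 8-array fit) for each collagen probe set (y axis, coloured by class) in pRb_null, p53_null and double_null; filled points have an unadjusted p under 0.05. In double_null the largest negative differences include Col8a1 at -2.51, Col2a1 at -2.37 and Col11a1 at -2.36, and the largest positive ones Col4a5 at 2.51 and Col4a1 at 2.36.

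Col11a1 encodes the alpha 1 chain of type XI collagen, which nucleates the thin fibrils of cartilage together with type II. Its probe set 1418599_at scored 0.94 and 1.03 on the control arrays, 0.69 and 0.73 for pRb_null, -0.18 and -0.44 for p53_null and -1.46 and -1.31 for double_null. The 4 genotypes did not overlap: control was highest, then pRb_null, p53_null and double_null. The difference from control was -2.36 ± 0.11 in double_null (adjusted p = 0.025), -1.29 ± 0.11 in p53_null (adjusted p = 0.081) and -0.27 ± 0.11 in pRb_null. Double_null was also lower than pRb_null, by a difference of -2.09 ± 0.11 (adjusted p = 0.036), while against p53_null the difference was -1.07 ± 0.11 (adjusted p = 0.12). Control and pRb_null are neighbours in this order and did not differ beyond the test's threshold. The order is not particular to collagens. Among hair follicle markers, Krt34, Krt86 and Krtap15 had it without overlap, while Krt25, Krt35, Shh and Lhx2 did not. The share of all probe sets with this order was not counted.

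The second Col11a1 probe set, 1449154_at, scored 0.85 and 1.49 on the control arrays, 0.08 and 0.18 for pRb_null, -0.18 and -0.53 for p53_null and -1.92 and 0.02 for double_null. Its means ran in the same order, but the double_null arrays lay far apart, on either side of both p53_null arrays. The difference from control in double_null was -2.12 ± 0.74 (adjusted p = 0.26). Both calls of 1418599_at were lost with any 1 of the 8 arrays left out, where the difference from control was between -2.44 and -2.29 with an adjusted p of 0.078 to 0.14, and the difference from pRb_null between -2.17 and -2.02 with an adjusted p of 0.11 to 0.19. Limma's moderated test gave an adjusted p of 0.19 and 0.21 for the same differences.

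The 250 bases before the Col11a1 start are shown because this was the gene with a call. The sequence is from RefSeq (GRCm38.p6), 5′ to 3′ on the gene's strand, with capitals for CCAAT and GGGCGG boxes, each also as its reverse complement (ATTGG and CCGCCC).
Col11a1, chr3:114030290-114030539 (+ strand): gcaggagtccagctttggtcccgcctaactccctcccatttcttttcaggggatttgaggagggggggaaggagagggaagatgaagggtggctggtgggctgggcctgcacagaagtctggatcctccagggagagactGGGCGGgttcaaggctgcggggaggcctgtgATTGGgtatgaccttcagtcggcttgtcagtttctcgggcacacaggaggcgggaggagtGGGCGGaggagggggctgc
It held 1 CCAAT box and 2 GGGCGG boxes. Promoter entries were found for 27 of the 36 genes, 30 starts in all. CCAAT was within 250 bases of 12 of them (40%), against 33.8% of all 32851 mouse starts in the table. GGGCGG was before 16 (53.3%, all starts 32.7%), TATAAA before 5 (16.7%, all starts 12.4%), and AACAATG, a core word of SOX factor sites, before 0 (all starts 3.29%). The median GC content of the 250 bases was 58.4% for the collagen starts and 52.4% for all starts. Its part in the GGGCGG share was not tested. The E2F words TTTCCCGC, TTTCGCGC, TTTGCCGC and TTTGGCGC, a form of the site through which pRb represses transcription, were before 1 collagen start, that of Col17a1 (3.33%, all starts 1.86%). Both strands were searched for each word. A match is a description of the letters and not of binding.

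Col2a1, the chain of type II collagen, the main fibril of cartilage, had 1 probe set. It scored 1.05 and 1.86 on the control arrays, -0.58 and -0.12 for pRb_null, -0.35 and -0.02 for p53_null and -1.30 and -0.53 for double_null. Both control arrays lay above all 6 mutant arrays. Among the mutants, pRb_null overlapped the other groups, and both double_null arrays lay below both p53_null arrays. The differences from control were -1.80 ± 0.44 in pRb_null, -1.64 ± 0.44 in p53_null and -2.37 ± 0.44 in double_null, with adjusted p of 0.34, 0.26 and 0.12, so that none passed.

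Type IX collagen, which decorates cartilage fibrils, has chains from Col9a1, Col9a2 and Col9a3. The Col9a3 probe set 1460693_a_at scored 0.76 and 0.53 on the control arrays, -0.85 and -1.12 for pRb_null, 1.01 and 1.30 for p53_null and -1.07 and -0.56 for double_null. The pRb_null and double_null arrays were low and those of control and p53_null high, with no overlap between them. The differences were -1.63 ± 0.24 for pRb_null against control (adjusted p = 0.22) and -1.97 ± 0.24 for double_null against p53_null (adjusted p = 0.16). A second probe set, 1460734_at, was also lower in pRb_null than in control (-2.11 ± 0.58, adjusted p = 0.38), whereas against p53_null double_null differed by -1.07. The third, 1420280_x_at, did not follow them, with r of 0.06 and -0.22 to the others over the 8 arrays.

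The Col9a1 probe set 1428571_at scored 0.76 and -0.18 on the control arrays, -0.66 and -1.34 for pRb_null, 1.59 and 0.98 for p53_null and -0.58 and -0.57 for double_null. As for Col9a3, the pRb-deficient arrays were the 4 lowest. Its other probe set, 1421381_a_at, scored -0.66 and -1.16 on the control arrays, 0.35 and -0.08 for pRb_null, 1.28 and -0.08 for p53_null and -1.13 and 1.48 for double_null, an order that did not match. Col10a1, the collagen of hypertrophic cartilage, lay between -0.93 and 0.52 on 7 arrays and at 2.25 on double_null replicate 2.

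Over the 7 cartilage collagen genes (11 probe sets), 9 were lower and 2 higher in double_null than in control, with a median difference of -0.90, and 4 passed an unadjusted p under 0.05, all lower (background 9.93%). In pRb_null 4 passed that bound and were lower (background 4.22%), and in p53_null 2 (background 7.24%). The summed score of the 11 ran from 2.44 to 7.61 in the control arrays, -3.42 to 0.80 in pRb_null, 1.26 to 2.78 in p53_null and -9.41 to -2.05 in double_null. For cartilage markers that are not collagens, the summed score likewise had its highest mean in control and its lowest in double_null. Single markers did not all follow it. Comp had its highest mean in pRb_null (2.02 and 0.40) and Matn3 in double_null (-0.42 and 2.05). Of the 11 marker probe sets, 2 were higher in double_null than in control, and 3 were lower at an unadjusted p under 0.05 (background 9.93%). All 8 listed genes were measured, by 11 probe sets, and their summed score was 5.22 to 5.73 in control, 1.11 to 1.12 in pRb_null, -1.85 to -0.60 in p53_null and -8.73 to -2.00 in double_null. Of these, only Acan, the large proteoglycan of cartilage, was called, in double_null against control (background for falls 0.526%). It scored 1.05 and 0.91 in control and -1.21 and -1.70 in double_null (-2.44 ± 0.21, adjusted p = 0.040). This call was lost with any 1 array left out. Sox9, the transcription factor of chondrocytes and also of the hair follicle, scored 0.97 and 1.17 in control and -1.26 and -1.45 in double_null by its probe set 1424950_at (-2.43 ± 0.25, adjusted p = 0.055). Of 7 hair follicle marker probe sets, 5 fell in double_null against control (background for falls 0.526%). Of these 5 calls, 4 were lost with any 1 array left out, and that of Krtap15, a hair keratin associated protein, remained only when the array left out was one of p53_null. Over all 22626 probe sets, 0 were called in this comparison by the moderated test, with a replicate block or with only the groups compared. The part of cartilage or follicle content in the collagen differences was not tested.

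**Figure D3:**
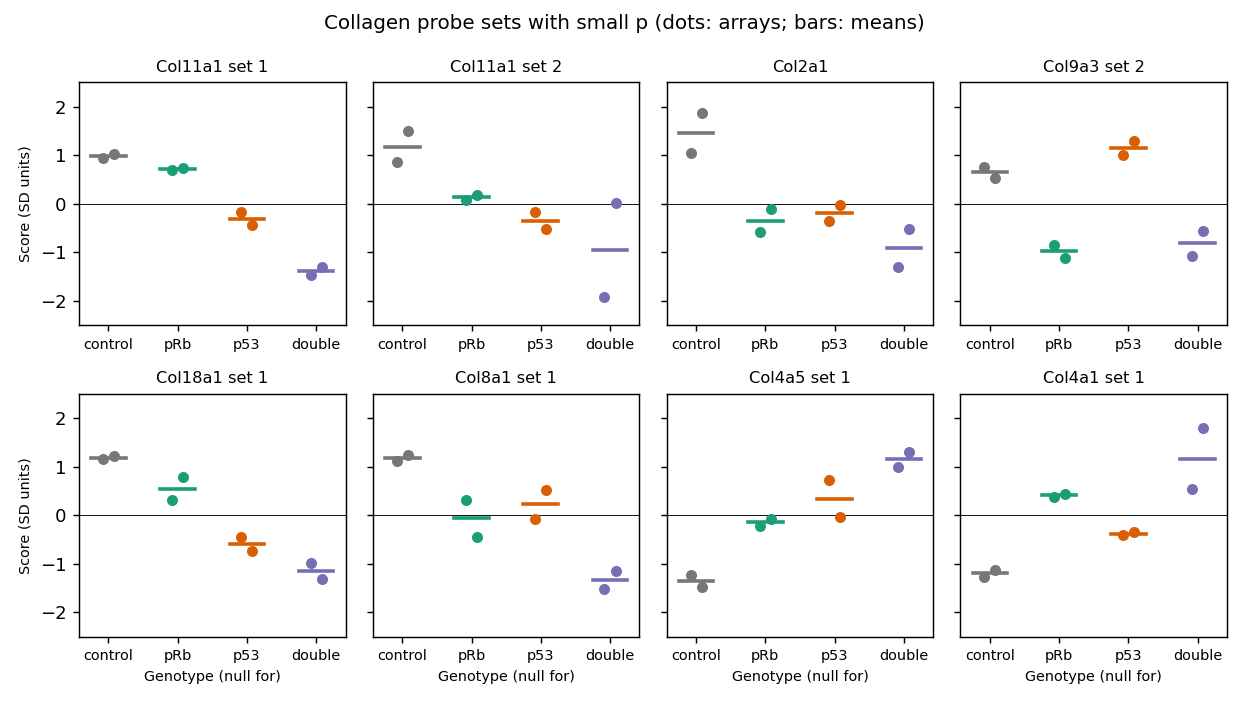
Scores (y axis, SD units) of 8 collagen probe sets in the 4 genotypes (x axis); dots are arrays and bars the means of 2 arrays. Col11a1 set 1 (1418599_at) steps down from 0.94 and 1.03 in control to -1.46 and -1.31 in double_null, while Col4a5 set 1 (1425475_at) steps up from -1.24 and -1.47 to 1.00 and 1.31.

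Type I collagen, the main fibril of dermis and bone, is built of Col1a1 and Col1a2 chains. The Col1a1 probe set 1423669_at scored -0.06 and 0.44 on the control arrays, 1.03 and 1.29 for pRb_null, 0.36 and -0.27 for p53_null and -1.49 and -1.29 for double_null. The pRb_null arrays were the highest and the double_null arrays the lowest. The difference of double_null from pRb_null was -2.55 ± 0.31 (adjusted p = 0.085) and from control -1.58 ± 0.31 (adjusted p = 0.12).

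The second Col1a1 probe set, 1455494_at, ran the other way. It scored -0.11 and -0.93 on the control arrays, -0.89 and -1.18 for pRb_null, -0.23 and 1.41 for p53_null and 0.81 and 1.11 for double_null. Double_null was higher than pRb_null by 2.00 ± 0.67 (adjusted p = 0.25), and r between the 2 probe sets over the 8 arrays was -0.85, the lowest of any collagen pair. No direction can therefore be given for Col1a1 RNA.

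For Col1a2, 1423110_at scored 0.80 and 0.62 on the control arrays, -0.40 and -0.60 for pRb_null, 0.99 and 0.40 for p53_null and 0.26 and -2.06 for double_null. Its other probe set, 1450857_a_at, scored -0.45 and -0.92 on the control arrays, -1.33 and 0.03 for pRb_null, 0.59 and -0.01 for p53_null and 1.95 and 0.16 for double_null. The double_null differences from control had opposite signs, -1.61 ± 0.85 and 1.74 ± 0.84, and neither passed.

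Type III is another fibrillar collagen of dermis, and its 2 probe sets agreed better. Col3a1 (1427883_a_at) scored 0.15 and -0.27 on the control arrays, -2.12 and -0.30 for pRb_null, 0.02 and 1.06 for p53_null and 0.45 and 1.01 for double_null. The probe set 1427884_at scored 0.64 and -1.41 on the control arrays, -1.69 and 0.24 for pRb_null, 0.06 and 0.58 for p53_null and 1.01 and 0.57 for double_null. In both, pRb_null had the lowest mean and double_null the highest, and r between them was 0.80. The differences of double_null from pRb_null, 1.94 ± 0.78 and 1.51 ± 1.02, did not pass.

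Type V collagen sets the diameter of type I fibrils. Col5a2 (1422437_at) scored 0.25 and -0.20 on the control arrays, -1.83 and -1.02 for pRb_null, 0.09 and 0.72 for p53_null and 0.95 and 1.04 for double_null, so that pRb_null lay below every other array. Its difference was -1.45 ± 0.40 in pRb_null against control (adjusted p = 0.37) and 2.42 ± 0.40 in double_null against pRb_null (adjusted p = 0.11). The second probe set, 1450625_at, scored 0.68 and -0.79 on the control arrays, -1.16 and -0.53 for pRb_null, 1.30 and 1.37 for p53_null and -0.02 and -0.86 for double_null.

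The Col5a1 probe set 1416741_at was likewise lowest in pRb_null, at -1.0 and -1.90, against -0.13 and 0.95 in control, 0.72 and 0.56 for p53_null and 0.81 and -0.00 for double_null. The other Col5a1 probe sets were not low there. They scored 2.14 and -0.32 (1416740_at) and 1.13 and -0.05 (1434479_at) in pRb_null, against -0.33 and -0.52, and -1.03 and 0.49, in control. In p53_null they scored -0.97 and 0.56, and 1.55 and -1.26, and in double_null 0.23 and -0.79, and -0.22 and -0.60. Over all 17 fibrillar probe sets the median difference from control was -0.70 in pRb_null, 0.23 in p53_null and -0.14 in double_null. The double_null value changed sign, to 0.06, when the arrays were quantile normalized.

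**Figure D4:**
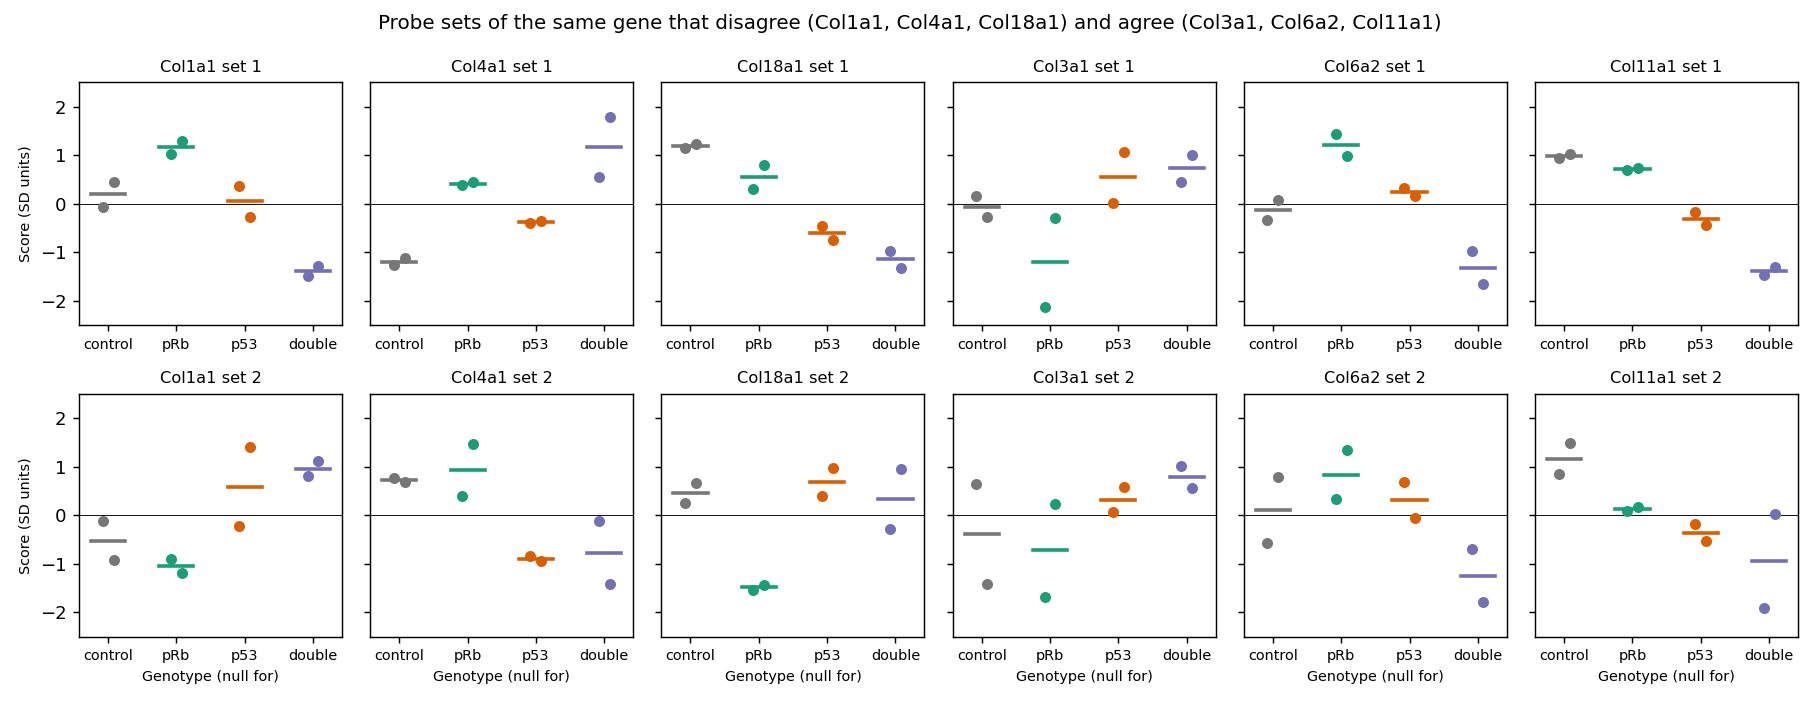
Scores (y axis, SD units) of both probe sets of 6 collagen genes in the 4 genotypes (x axis); dots are arrays, bars the means of 2 arrays, and sets are numbered in order of identifier. The Col1a1 sets mirror each other (r = -0.85 over 8 arrays), those of Col4a1 and Col18a1 disagree (r = -0.41 and -0.34), and those of Col3a1, Col6a2 and Col11a1 run together (r = 0.80, 0.85 and 0.79).

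Such disagreement was general. The 19 genes with several probe sets gave 25 pairs of probe sets, of which 18 had a positive r over the 8 arrays, with a median r of 0.19. Over all 12821 pairs of probe sets of 1 gene on the array the median r was 0.21, and 65.3% were positive, beside 72.0% for the collagens. In double_null against control, 13 of the 25 collagen pairs had differences of the same sign, and in double_null against p53_null 22. When the probe sets of each gene were averaged, 0 collagen genes were called in any comparison by limma's ordinary test, and 5 of the 36 genes in pRb_null (8.80% of all genes), 5 in p53_null (13.6%) and 7 in double_null (18.1%) differed from control at an unadjusted p under 0.05.

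Type IV collagen forms the network of the basement membrane, with Col4a1 and Col4a2 in nearly all of them and Col4a5 and Col4a6 together in that of the epidermis. Col4a5 (1425475_at) scored -1.24 and -1.47 on the control arrays, -0.22 and -0.07 for pRb_null, 0.72 and -0.03 for p53_null and 1.00 and 1.31 for double_null. Control was lowest and double_null highest, without overlap with the single mutants, which lay between them. The difference from control was 1.21 ± 0.30 in pRb_null (adjusted p = 0.35), 1.70 ± 0.30 in p53_null (adjusted p = 0.16) and 2.51 ± 0.30 in double_null (adjusted p = 0.067). The second probe set, 1425476_at, had an r of 0.68 with the first and a difference of 1.74 ± 0.83 in double_null (adjusted p = 0.36).

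Col4a6 lies head to head with Col4a5 on the X chromosome, with 1343 bases between their RefSeq starts. Its probe set 1421006_at scored 0.25 and -0.07 on the control arrays, -0.26 and 0.22 for pRb_null, -1.84 and -0.44 for p53_null and 1.75 and 0.39 for double_null. Like Col4a5, it had a higher mean in double_null than in p53_null (2.21 ± 0.72, adjusted p = 0.39). Its mean in pRb_null differed from control by -0.11 ± 0.72. The second Col4a6 probe set, 1421007_at, scored 0.17 and 1.35 on the control arrays, -1.35 and -0.61 for pRb_null, -1.12 and 0.11 for p53_null and 0.19 and 1.28 for double_null. Its pRb_null arrays lay below both control arrays (-1.74 ± 0.76, adjusted p = 0.54). Both promoters are shown because the genes share this intergenic stretch, with boxes in capitals as above.
Col4a5, chrX:141475169-141475418 (+ strand): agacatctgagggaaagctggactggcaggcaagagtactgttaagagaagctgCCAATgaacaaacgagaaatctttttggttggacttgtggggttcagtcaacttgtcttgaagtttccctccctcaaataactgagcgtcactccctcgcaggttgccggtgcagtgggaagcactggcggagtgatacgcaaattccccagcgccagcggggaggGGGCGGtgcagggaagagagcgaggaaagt
Col4a6, chrX:141474077-141474326 (- strand): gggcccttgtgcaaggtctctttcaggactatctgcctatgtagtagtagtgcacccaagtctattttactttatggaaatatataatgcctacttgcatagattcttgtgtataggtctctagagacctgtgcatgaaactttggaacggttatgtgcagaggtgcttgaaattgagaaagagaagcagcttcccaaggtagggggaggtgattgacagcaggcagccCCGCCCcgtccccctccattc
The Col4a5 stretch held 1 CCAAT box and 1 GGGCGG box, and that of Col4a6 held 1 GGGCGG box.

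Col4a1 and Col4a2 also lie head to head, with starts 21 bases apart. Only the 27 collagen genes with a promoter entry could be searched for such pairs, and Col4a3 was not among them. Col4a1 (1426348_at) scored -1.27 and -1.12 on the control arrays, 0.38 and 0.44 for pRb_null, -0.40 and -0.35 for p53_null and 0.54 and 1.79 for double_null. Control was lowest and no groups overlapped. Its differences were 1.61 ± 0.45 in pRb_null (adjusted p = 0.38) and 2.36 ± 0.45 in double_null (adjusted p = 0.12). The probe set 1452035_at of the same gene scored 0.77 and 0.68 on the control arrays, 0.40 and 1.47 for pRb_null, -0.84 and -0.94 for p53_null and -0.12 and -1.42 for double_null, and its difference of -1.49 ± 0.60 in double_null had the opposite sign. Col4a2 scored -1.35 and 1.75 on the control arrays, -0.60 and 0.37 for pRb_null, 0.12 and -0.34 for p53_null and 0.89 and -0.85 for double_null. Its control arrays were the lowest and the highest of the 8, so that this probe set tells nothing of genotype. The chains of Col4a3 and Col4a4 had no difference from control at an unadjusted p under 0.05.

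Col18a1 encodes a basement membrane collagen whose C-terminal fragment is endostatin, and it is transcribed from more than 1 start. Its probe set 1418237_s_at scored 1.15 and 1.23 on the control arrays, 0.31 and 0.79 for pRb_null, -0.45 and -0.74 for p53_null and -0.98 and -1.32 for double_null, the same order of genotypes as Col11a1 with no overlap. The differences from control were -0.64 ± 0.23, -1.78 ± 0.23 and -2.34 ± 0.23, with adjusted p of 0.11 in p53_null and 0.055 in double_null. The suffix s marks a probe set that may detect transcripts of more than 1 gene. The other probe set, 1426955_at, scored 0.25 and 0.67 on the control arrays, -1.53 and -1.43 for pRb_null, 0.39 and 0.98 for p53_null and -0.28 and 0.95 for double_null. It was low in pRb_null alone (-1.94 ± 0.51, adjusted p = 0.36). The sources used here do not say which start each probe set reports. The 250 bases before both RefSeq starts are shown because the 2 probe sets differed.
Col18a1 upstream start, chr10:77166531-77166780 (- strand): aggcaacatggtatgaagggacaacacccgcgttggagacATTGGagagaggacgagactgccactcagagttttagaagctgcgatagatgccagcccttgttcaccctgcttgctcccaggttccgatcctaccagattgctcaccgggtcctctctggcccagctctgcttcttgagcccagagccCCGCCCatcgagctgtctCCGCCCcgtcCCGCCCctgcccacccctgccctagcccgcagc
Col18a1 downstream start, chr10:77113706-77113955 (- strand): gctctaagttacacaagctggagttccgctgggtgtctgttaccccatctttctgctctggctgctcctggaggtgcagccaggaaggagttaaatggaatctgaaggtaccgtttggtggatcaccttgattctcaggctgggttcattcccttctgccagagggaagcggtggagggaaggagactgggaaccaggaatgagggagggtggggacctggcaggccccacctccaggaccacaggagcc
The upstream start had 1 CCAAT box and 3 GGGCGG boxes, and the downstream start had 0 of each. Col15a1, the other collagen of this subfamily, scored 0.52 and 1.63 in control and lay between -1.49 and 0.84 in the mutants.

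Type VI collagen forms beaded filaments from Col6a1, Col6a2 and Col6a3 chains in 1 heterotrimer. Col6a2 (1426947_x_at) scored -0.34 and 0.08 on the control arrays, 1.43 and 0.99 for pRb_null, 0.33 and 0.15 for p53_null and -0.98 and -1.66 for double_null. The second probe set, 1452250_a_at, scored -0.58 and 0.78, 0.33 and 1.34, 0.68 and -0.06, and -0.70 and -1.79 in the same groups. Both were lowest in double_null, and r between them was 0.85. The first differed by -2.53 ± 0.33 between double_null and pRb_null (adjusted p = 0.088), the second by -2.08 ± 0.76.

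The partner chains were not high in pRb_null, where both had their lowest mean. Col6a1 scored 0.33 and 0.27 on the control arrays, -1.25 and -0.55 for pRb_null, 1.33 and 0.98 for p53_null and 0.34 and -1.45 for double_null. Col6a3 scored 0.54 and 0.71 on the control arrays, -1.63 and -0.36 for pRb_null, 1.21 and 0.69 for p53_null and 0.06 and -1.21 for double_null. All 4 type VI probe sets had a lower mean in double_null than in control (median difference -1.20) and than in p53_null (-1.55). Of these, 1 had an unadjusted p under 0.05 in each comparison (background for lower 9.93% and 5.92%).

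Of the collagens that fasten the epidermis, Col7a1, the anchoring fibril chain, scored -0.13 and 1.22 on the control arrays, -0.82 and -0.70 for pRb_null, 1.85 and -0.33 for p53_null and -0.22 and -0.88 for double_null. Col17a1, the hemidesmosome collagen of basal keratinocytes, scored -1.44 and 0.79 on the control arrays, 0.42 and -1.17 for pRb_null, 1.25 and 0.32 for p53_null and 0.64 and -0.82 for double_null. Replicates differed as much as genotypes did. For Col17a1 the difference in double_null was 0.24 ± 1.15 and for Col7a1 -1.10 ± 0.93, so neither can be told from 0 here. Changes larger than these in either direction are not excluded. Over the 4 anchoring and transmembrane probe sets, 0 had an unadjusted p under 0.05 in any comparison.

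Among the fibril-associated collagens of dermis, Col14a1 (1428455_at) scored 0.51 and 0.98 on the control arrays, -1.45 and -1.48 for pRb_null, 0.63 and -0.49 for p53_null and 0.80 and 0.50 for double_null. Only the pRb_null arrays were low. It differed by -2.21 ± 0.44 in pRb_null against control (adjusted p = 0.29) and by 2.11 ± 0.44 in double_null against pRb_null (adjusted p = 0.15). Its other probe set, 1427168_a_at, scored -0.05 and -1.26 on the control arrays, -1.08 and -0.25 for pRb_null, -0.03 and -0.08 for p53_null and 1.84 and 0.89 for double_null, and was 2.03 ± 0.62 higher in double_null than in pRb_null (adjusted p = 0.23). Col12a1, a tension-related partner of type I fibrils, scored 1.70 and 1.08 in pRb_null against -1.41 and -0.05 in control (2.12 ± 0.57, adjusted p = 0.37).

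Col8a1, a short chain collagen of vessels and Descemet's membrane, had both probe sets lowest in double_null. The probe set 1418440_at scored 1.11 and 1.24 in control and -1.52 and -1.15 in double_null (-2.51 ± 0.37, adjusted p = 0.092), with both single mutants between -0.45 and 0.53. Of 9 endothelial marker probe sets, 8 had a higher mean in double_null than in control, with a median difference of 1.43. At an unadjusted p below 0.05, 5 were higher (background 8.72%) and 0 lower, none of them called. Of 11 pericyte and smooth muscle probe sets, 1 was higher (background 8.72%) and 2 lower (background 9.93%) at that bound. Their median difference was -0.32. The part of vessel content in the Col8a1 difference was not tested. Col26a1 was high in p53_null, at 1.31 and 1.59, against -0.35 and -0.13 in control (1.69 ± 0.37, adjusted p = 0.20). The other members are in the plot of scores by array.

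Of the enzymes that modify, fold and crosslink collagen, 22 of 30 listed genes were measured, by 35 probe sets. In double_null against control 1 of these fell (background for falls 0.526%) and 0 rose. It was Plod2 (1416687_at), the lysyl hydroxylase of collagen telopeptides, which scored 1.16 and 1.11 on the control arrays, 0.33 and 0.44 for pRb_null, -0.24 and 0.04 for p53_null and -1.35 and -1.49 for double_null. Its differences were -2.56 ± 0.12 from control (adjusted p = 0.024) and -1.81 ± 0.12 from pRb_null (adjusted p = 0.043, background for falls 0.256%). With any 1 array left out both calls were lost, at an adjusted p of 0.073 to 0.14 and of 0.13 to 0.20. The order of genotypes was that of Col11a1. The second Plod2 probe set was at -1.80 ± 0.74 in double_null (adjusted p = 0.31).

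Of 6 measured collagen receptors (19 probe sets), 1 probe set of Ddr1, a receptor tyrosine kinase that binds collagen, rose in double_null against pRb_null. This was 1437619_x_at (2.52 ± 0.16, adjusted p = 0.043), in a comparison where the background of calls was 0.407%. The call was lost with any 1 array left out. Another Ddr1 probe set, 1415798_at, had the opposite sign (-2.44 ± 0.35, adjusted p = 0.10). None of the 30 probe sets of fibril-binding matrix proteins, the 27 of collagenases, gelatinases and their inhibitors or the 27 of dermal epidermal junction partners was called by limma's ordinary or moderated test in double_null against control. At an unadjusted p under 0.05 in double_null, 7 were higher and 4 lower, 3 higher and 2 lower, and 2 higher and 5 lower in these lists. The background was 8.72% higher and 9.93% lower. The smallest p belonged to Lum, a keratan sulfate proteoglycan of fibrils (2.11 ± 0.24, adjusted p = 0.064), Timp3, an inhibitor of metalloproteinases (-1.96 ± 0.32, adjusted p = 0.099), and Lama5, a laminin chain (-2.00 ± 0.27, adjusted p = 0.078).

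Of 16 fibroblast marker probe sets of 11 genes, 1 was higher (background 8.72%) and 3 lower (background 9.93%) in double_null than in control at an unadjusted p under 0.05. In pRb_null 2 were higher (background 6.38%) and 4 lower (background 4.22%). In p53_null 3 were higher (background 7.32%) and 3 lower (background 7.24%). Their median difference in double_null was -0.07, and 1 was called lower (background for falls 0.526%): Eln, elastin (1420855_at, -2.49 ± 0.19, adjusted p = 0.036). This call was lost with any 1 array left out (adjusted p 0.11 to 0.18), and its other probe set was at -1.28 ± 0.52. Basal keratinocyte markers had 2 higher (background 8.72%) and 3 lower (background 9.93%) of 15 probe sets in double_null at that unadjusted bound, with a median of 0.02.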

How the data were processed

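Each of the 8 arrays carried RNA pooled from 3 animals, and groups were taken from the sample titles. RMA is the only tool named in the submitters' processing notes, with no version. The authors deposited scores, not levels: each of the 22690 probe sets, when checked, averaged 0 with an SD of 1 (tolerance 1e-06). The sources used here do not give how the authors standardized RMA values. Gene symbols came from the platform annotation (20393 probe sets with 1 symbol, 691 with several, 1606 with none); all 58 collagen probe sets matched RefSeq GRCm38.p6 by Entrez number, and 0 had several symbols.

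Limma 3.58.1 in R 4.3.3 fitted 1 mean per group on all non-control probe sets, with 4 residual degrees of freedom. The ordinary statistic was used because it does not depend on a row's scale, which standardizing had fixed, and the moderated one was an alternative. The fit was tested on simulated data.

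Named genes were skin and cartilage collagens listed by name, called probe sets and the 3 smallest p in each comparison, with called or smallest-p probe sets of the partner lists. Col12a1, Col8a1, Col15a1, Col26a1 and the second sets of Col4a5, Col9a3 and Col18a1, Col4a6 and Ddr1 1415798_at were added after their values were seen. Members and lists were chosen with earlier results of these data known. Alternatives were moderation, a replicate block, quantile normalization, array medians set to 0, control probe sets included, gene means, only the groups compared, array weights and leaving out each array. Trp53 was not analysed here. Python 3.11.15, pandas 2.3.3 and matplotlib 3.10.9 made tables and plots.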

Additional observations from a re-analysis of the deposited data

Results flagged for a closer look

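For 4 collagen probe sets, loss of pRb went 1 way where p53 was present and the other way where it was absent, with no overlap between arrays in either comparison. These are 6.90% of the 58, beside 8.76% of all 22626 probe sets. The interaction, which is the second difference minus the first, was tested with limma and passed for none of them.

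Col6a2 (1426947_x_at) was 1.34 higher in pRb_null than in control and differed by -1.56 between double_null and p53_null, an interaction of -2.90 ± 0.46 (adjusted p = 0.27). The other Col6a2 probe set, 1452250_a_at, had the same signs, but its pRb_null arrays overlapped control (0.74 ± 0.76). For Col1a1 (1423669_at) the differences were 0.97 and -1.44 and the interaction -2.41 ± 0.43 (adjusted p = 0.31); the other Col1a1 probe set ran the other way. In Col5a2 (1422437_at) they were -1.45 and 0.59, with an interaction of 2.04 ± 0.56 (adjusted p = 0.39), and in Col4a6 (1421007_at) -1.74 and 1.24, with 2.98 ± 1.08 (adjusted p = 0.48).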

How the results depend on the processing

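The single call in double_null against control and the single call in double_null against pRb_null, both Col11a1, became 0 with the moderated statistic, a replicate block, quantile normalization, gene means and only the groups compared, and the second also with array weights. With each array left out in turn both counts were 0 throughout (range 0 to 0). Both stayed at 1 with array medians set to 0 and with control probe sets included. The difference of Col11a1 1418599_at from control lay between -2.44 and -2.29 over the 15 alternatives fitted on probe sets, with an adjusted p from 0.025 to 0.34, and the mean of both Col11a1 probe sets differed by -2.24 ± 0.41 (adjusted p = 0.12). With the replicate block its adjusted p was 0.099 against control and 0.14 against pRb_null. Deviations of same-numbered arrays correlated at -0.163 to 0.197 between groups. With 2 arrays a group, these values cannot tell whether the numbers pair the samples. Of 2759 alternative values of 186 named differences, 110 changed sign, none of them called. Counts at an unadjusted p under 0.05 were 14 in pRb_null, 5 in p53_null and 12 in double_null against control, and ran from 5 to 15, 3 to 8 and 6 to 14 over the alternatives. In double_null against pRb_null the count was 13 (6 to 18), against p53_null 10 (7 to 12), for the interaction 5 (3 to 8) and for any genotype 14 (9 to 16). All these ranges include the fit on gene means, which counts genes (of 36) and not probe sets (of 58). With 2 arrays a group and no expression levels, the absence of a call does not show that a collagen was unchanged.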
